A study of Mus musculus with 4 samples.

Results

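Single-gene boundary regions found only in WT were the subject, that is, stretches of open chromatin at the start or end of 1 gene where both wild-type (WT) libraries had an ATAC-seq peak and neither miR-187 library did. The peaks of the 4 lists on chromosomes 1 to 19 were merged wherever they overlapped by at least 1 bp, which gave 20624 regions. A region was selected when its midpoint lay within 1 kb of a boundary of exactly 1 protein-coding gene and when both WT lists, but no miR-187 list, contributed a peak to it. These conditions were met by 830 regions at 825 genes. At a further 1344 single-gene boundary regions the WT peaks were joined by one from at least 1 miR-187 list, and these kept regions served as the comparison. Because the members were chosen by the presence and absence of peaks in these 4 lists, the absence itself is a description and is given with no test.

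The libraries came from hearts of newborn (P0) mice and consisted of 2 WT and 2 miR-187 libraries. The miR-187 mice overexpress the microRNA miR-187 from a knockin at the Rosa26 locus on the C57BL/6J background, with the endothelial Tek (Tie2) promoter as the driver, and the study's own ATAC-seq comparison in mice names +/+ and KI/KI (homozygous) genotypes, although the sample labels state no zygosity and the deposited miR-187 lists carry only the unexplained tag HO. The study describes endothelial cells captured on beads against CD31, whereas the labels name heart tissue only. Nothing in the labels says whether replicates were single or pooled animals. Of 18 endothelial marker genes, 3, 3, 2 and 1 had a peak at a boundary (both WT libraries first, then both miR-187 libraries), against 2, 0, 0 and 0 of 18 cardiomyocyte markers, 2, 4, 1 and 0 of 8 fibroblast markers and none of 5 erythroid, 6 immune or 6 mural markers. The peak lists are therefore too sparse at marker genes to settle the cell type.

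ATAC-seq uses a transposase that inserts sequencing adapters into DNA free of nucleosomes, so a peak marks a stretch where chromatin was open in many of the cells. The starts of genes used in most cells, especially those rich in CpG dinucleotides, are kept open by general factors such as SP1, NFY and ETS proteins. The study asks about NIPBL, the protein that loads the cohesin ring onto DNA, as a target of miR-187.

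The members were mostly gene starts. Among the 658 members whose gene had a strand in the RefSeq promoter table, the nearest boundary was the 5′ end in 640 (97.3%, 95% Wilson interval 95.7 to 98.3), and among 1097 kept regions it was the 5′ end in 1079 (98.4%, 97.4 to 99.0). All Wilson intervals given here cover counting error only. The promoter windows of 5 members are shown because, among members with an entry in that table, they are the strongest in which the summits of both WT peaks fall inside the window. Each window runs from 250 bp before to 50 bp after the start, is written 5′ to 3′ on the strand of the gene and comes from RefSeq on GRCm38.p6. Capitals mark matches, read on either strand, to any of 9 motifs, and those found in these windows are spelled out here. The GC box bound by SP1 was searched as GGGCGG. The box bound by NFY was searched as its namesake CCAAT. The motif of ETS factors was searched as CCGGAAG. The core of the YY1 motif was searched as AAGATGG. The box bound by the TATA-binding protein was searched as TATAAA. Matches of different motifs were counted separately even where they overlap.
Serbp1 promoter, chr6:67266729-67267028, plus strand: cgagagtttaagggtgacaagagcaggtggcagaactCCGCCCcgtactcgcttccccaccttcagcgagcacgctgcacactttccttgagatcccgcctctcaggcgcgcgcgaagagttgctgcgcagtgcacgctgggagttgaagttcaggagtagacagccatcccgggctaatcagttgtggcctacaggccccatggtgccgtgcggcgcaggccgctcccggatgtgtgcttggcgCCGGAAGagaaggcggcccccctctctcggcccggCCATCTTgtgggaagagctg
Cebpa promoter, chr7:35119043-35119342, plus strand: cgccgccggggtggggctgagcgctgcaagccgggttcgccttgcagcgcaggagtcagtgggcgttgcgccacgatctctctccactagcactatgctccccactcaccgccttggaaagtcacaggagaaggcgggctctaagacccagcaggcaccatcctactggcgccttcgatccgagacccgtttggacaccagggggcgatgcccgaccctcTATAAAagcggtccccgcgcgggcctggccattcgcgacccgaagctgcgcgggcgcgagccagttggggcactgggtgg
Pcbp2 promoter, chr15:102470289-102470588, plus strand: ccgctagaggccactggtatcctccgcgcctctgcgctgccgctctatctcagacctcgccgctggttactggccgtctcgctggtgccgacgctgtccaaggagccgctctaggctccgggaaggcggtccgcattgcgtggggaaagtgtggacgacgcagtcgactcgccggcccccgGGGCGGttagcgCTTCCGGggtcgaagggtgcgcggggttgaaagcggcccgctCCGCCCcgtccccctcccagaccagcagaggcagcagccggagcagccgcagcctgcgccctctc
Tbc1d9b promoter, chr11:50131110-50131409, plus strand: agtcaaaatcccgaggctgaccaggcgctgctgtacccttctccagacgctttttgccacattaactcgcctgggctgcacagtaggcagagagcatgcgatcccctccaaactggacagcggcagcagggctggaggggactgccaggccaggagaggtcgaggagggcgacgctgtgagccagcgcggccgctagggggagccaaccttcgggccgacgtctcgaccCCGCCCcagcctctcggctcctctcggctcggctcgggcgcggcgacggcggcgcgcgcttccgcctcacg
Zfp810 promoter, chr9:22307589-22307888, minus strand: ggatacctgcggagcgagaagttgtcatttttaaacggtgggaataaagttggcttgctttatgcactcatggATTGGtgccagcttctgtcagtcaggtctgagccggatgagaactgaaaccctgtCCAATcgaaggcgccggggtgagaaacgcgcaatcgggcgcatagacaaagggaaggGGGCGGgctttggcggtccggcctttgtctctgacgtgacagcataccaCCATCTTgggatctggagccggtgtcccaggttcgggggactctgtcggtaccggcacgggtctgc
The windows of Serbp1, Pcbp2, Tbc1d9b and Zfp810 hold a GC box and that of Cebpa a TATA box instead. ETS matches occur in Serbp1 and Pcbp2, YY1 matches in Serbp1 and Zfp810, and CCAAT boxes in Zfp810. The WT summits lay at -105 and -93 bp from the start in Serbp1, -59 and -164 bp in Cebpa, -183 and -178 bp in Pcbp2, 8 and -80 bp in Tbc1d9b, and -49 and -55 bp in Zfp810, in WT replicates 1 and 2 respectively.

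Of the 2174 single-gene boundary regions listed in both WT libraries, 38.2% were members. The same share was 42.2% over all 4204 regions listed in both WT libraries, 36.3% over the 501 regions at boundaries of 2 or more protein-coding genes and 49.8% over the 1529 regions at no protein-coding boundary. These shares follow from the selection and are the background against which the counts of genes below are read. The miR-187 lists contributed unequally to the kept regions, since miR-187 replicate 1 supplied a peak to 1284 of the 1344 and miR-187 replicate 2 to 231, with 171 in both. Membership was therefore decided mostly by miR-187 replicate 1, and without that library 1933 single-gene regions (89.5%) would count as WT-only. Leaving out peaks under a −log10 q of 5 gave 323 members (57.4%), and cutting every list to the length of the shortest gave 102 (47.7%).

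The libraries differed in depth, but not by group alone. Background density was inferred from the peak values at 1751 and 5227 reads per Mb for the WT libraries and at 2016 and 1032 for the miR-187 libraries, replicate 1 first, so miR-187 replicate 1 was somewhat deeper than WT replicate 1 while WT replicate 2 was the deepest and miR-187 replicate 2 the shallowest. The WT lists held 9307 and 12155 autosomal peaks and the miR-187 lists 7407 and 1461. The number of reads at a peak summit was solved from the deposited fold enrichment and p-value, and is an inference. At the members it ranged from 4 to 20 with a median of 9 in WT replicate 1, and from 8 to 32 with a median of 15 in WT replicate 2. The lowest number of reads at any listed summit was 5 and 4 in the miR-187 lists. At the density of miR-187 replicate 1, the median over members was 10.4 reads when scaled from WT replicate 1 and 5.79 when scaled from WT replicate 2, and the median number needed for a call was 6 in both cases.

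To set each member against that limit, its WT reads were scaled to the density of a miR-187 library. They were compared with the fewest reads that would reach the lowest −log10 p in that list. The local WT background was scaled in the same way, but was set no lower than the inferred background of the miR-187 library. Scaled from WT replicate 1, 821 of the 830 members (98.9%) reached the reads needed in miR-187 replicate 1, as did 1336 of 1344 kept regions (99.4%). Scaled from WT replicate 2, 372 members (44.8%) and 856 kept regions (63.7%) did. The outcome from WT replicate 1 was nearly fixed in advance, because every region had already been called there. Its reads were scaled by 1.15, and the lowest listed −log10 p was 4.06 in WT replicate 1 and 4.24 in miR-187 replicate 1. The scaled values of both WT libraries were sufficient at 367 members (44.2%, 40.9 to 47.6) and 852 kept regions (63.4%, 60.8 to 65.9). For miR-187 replicate 2, 433 members (52.2%) and 841 kept regions (62.6%) reached the reads needed when scaled from WT replicate 1. The members had been selected for a peak in both WT lists, so their WT reads are not an unselected sample, and the part of depth in the absence of miR-187 peaks was not tested further.

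With the lists as deposited, the members were weaker WT peaks than the kept regions. Strength was expressed as the percentile rank of the −log10 q within its own list, taking the lower rank of the 2 WT lists. Its median was 40.3 in the members (quartiles 21.8 and 62.1) and 55.2 in the kept regions (quartiles 32.0 and 76.3), a difference of -14.9. The difference was -11.7 in WT replicate 1 and -15.8 in WT replicate 2 when each list was taken alone, with an SD of 2.92 over the libraries. It was smaller, at -5.3, when peaks under a −log10 q of 5 were left out, and -1.68 when every list was cut to the length of the shortest. It was larger, at -23.8, without WT replicate 1, and -17.9 with a window of 3 kb. The median −log10 q was 3.86 against 4.40 in WT replicate 1 and 5.43 against 6.91 in WT replicate 2, members first. Median fold enrichment was 5.47 against 5.79 and 5.24 against 5.80 in the same order, and median summit reads were 9 against 10 and 15 against 17. The distributions overlapped widely, because the strongest member stood at rank 98.1 and the weakest kept region at 0.0329. These are WT values of sets that the miR-187 lists define, so no test was applied to them.

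Members were found at every level of WT strength. The 2174 regions were divided by strength into 5 groups of nearly equal size. Members made up 228 of 434 regions (52.5%, 47.8 to 57.2) in the weakest group, then 184 of 435 (42.3%, 37.7 to 47.0), 173 of 435 (39.8%, 35.3 to 44.4) and 144 of 435 (33.1%, 28.8 to 37.7), and 101 of 435 (23.2%, 19.5 to 27.4) in the strongest. In the strongest group, which holds ranks from 76.5 upward, 334 regions were thus kept and 101 were not. Scaled reads of both WT libraries reached the number needed in miR-187 replicate 1 at all of these regions. In the weakest group they did so at 48 of 228 members and 61 of 206 kept regions. The reads were solved from the same WT peaks whose strength defines the groups, so this contrast largely follows from the grouping. Members were still the weaker ones within the strongest group, with a median rank of 87.3 against 91.8 in WT replicate 1 and 88.9 against 92 in WT replicate 2. Without miR-187 replicate 1, whose absence drops that condition of the rule, 84.7% of the strongest group would count as members, and with WT replicate 1 as the only WT list 34.1% would.

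**Figure D1:**
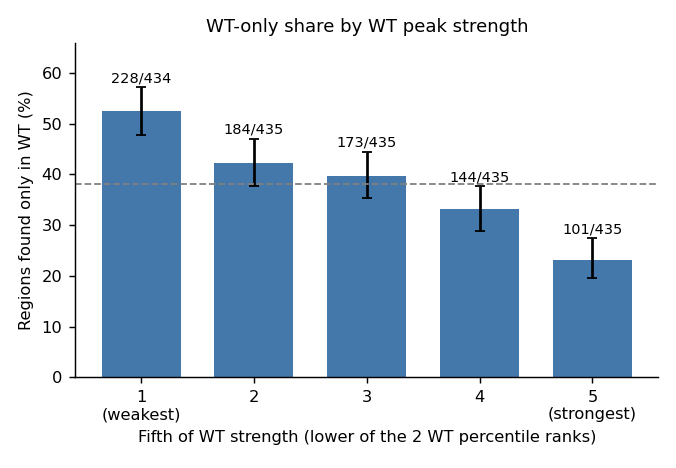
Percentage of single-gene boundary regions listed in both WT libraries that were found only in WT (y axis), by group of WT strength (x axis, 1 weakest to 5 strongest). Bars are shares with their counts, error bars are 95% Wilson intervals that cover counting error only, and the dashed line is the share over all 2174 regions, 38.2%. The share ran from 52.5% in group 1 to 23.2% in group 5.

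Within each group of strength, the median WT peak of members was narrower than that of kept regions. The groups are not exactly matched, since kept regions had the higher median rank of −log10 q in WT replicate 2 in all 5 groups, most of all in group 2 (52.6 against 39.6). In WT replicate 1 members had the higher median rank in groups 1, 2 and 4, for example 74.2 against 72.4 in group 4, where their median width was 299.5 against 345.0 bp. The median width of the WT replicate 1 peak was 280.5 bp in members and 304.0 bp in kept regions in the weakest group, and 349.0 against 400.0 bp in the strongest. In WT replicate 2 it was 338.0 against 431.0 bp in the weakest group and 456.0 against 506.5 bp in the strongest. Over all regions the medians were 298 against 341 bp in WT replicate 1 and 377.0 against 471.0 bp in WT replicate 2. A wider region also offers more bases for a miR-187 peak to overlap, and the part of this in the membership was not tested.

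**Figure D2:**
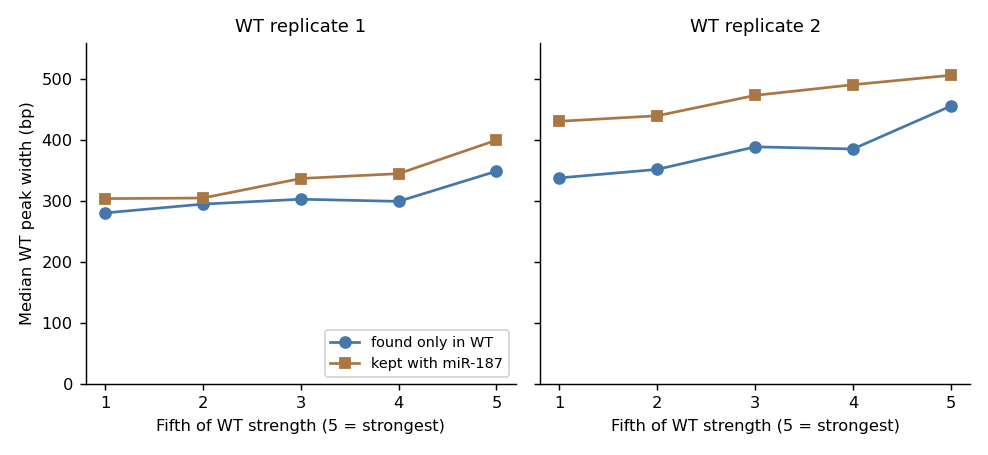
Median width in bp (y axis) of the peak in WT replicate 1 (left) and WT replicate 2 (right), by group of WT strength (x axis, 1 weakest to 5 strongest), for regions found only in WT (circles) and kept regions (squares). The members lie below the kept regions in all groups of both libraries, for example at 338.0 against 431.0 bp in the weakest group of WT replicate 2.

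The strongest member was the start of Serbp1 (chr6:67266701-67267083, GRCm38 coordinates), which encodes an RNA-binding protein found on ribosomes. Its peak had a −log10 q of 10.1 with 15 summit reads and a fold of 9.09 in WT replicate 1, and 13.9 with 24 reads and a fold of 8.68 in WT replicate 2. At the density of miR-187 replicate 1 those reads correspond to 17.3 and 9.26, against 6 needed, and no peak was listed there. The next miR-187 peak lay 107709 bp away. Cebpa (chr7:35118765-35119392), a transcription factor of granulocyte and fat cell differentiation, followed with a −log10 q of 8.73 and 12.4 and with 17 and 25 reads. Cacng2, which encodes the stargazin subunit that escorts AMPA receptors in neurons, had a −log10 q of 12.8 and 12.4, and its region had its midpoint inside the gene, 266 bp from the boundary, while the start in the promoter table lies further in, 692 and 611 bp from the summits. Gpcpd1, a phosphodiesterase of choline metabolism, had 13 and 23 reads. A housekeeping gene, a lineage factor and a neuronal gene thus stood side by side among the strongest members.

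Pcbp2 (chr15:102470209-102470554), a poly(C)-binding RNA regulator, had 14 and 25 summit reads and a −log10 q of 7.55 and 13.5. Casp8ap2, which takes part in histone mRNA processing, had 13 and 22 reads and a −log10 q of 7.29 and 11.4. The zinc finger genes Zfp568 and Zfp810, of a family that silences transposons and other sequences, had 16 and 24 and 14 and 19 reads respectively. Zfp568 illustrates how much rests on the overlap rule, since a separate miR-187 peak began 2 bp from its region and a region with a miR-187 peak lay at the same gene. The other zinc finger start, Zfp810 (chr9:22307467-22307882), had its nearest miR-187 peak 20341 bp away.

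The other 7 of the 15 had varied functions. Il6st encodes gp130, the shared receptor subunit of the interleukin-6 family, and had 14 and 22 reads with a −log10 q of 8.08 and 9.81. Spsb1, a SOCS box adaptor of a ubiquitin ligase, had 19 and 25 reads with a −log10 q of 9.76 and 9.77. Spag9, a scaffold of JNK signalling, had 15 and 26 reads at a region whose midpoint was 728 bp from the boundary, with a miR-187 peak 320 bp away. Tbc1d9b (chr11:50130839-50131557), a TBC-domain protein of the family that switches off Rab GTPases, held the highest read number of the 15 in WT replicate 2, at 32, with 13 in WT replicate 1. Mtpn, whose ankyrin repeats bind actin capping protein, held the lowest in WT replicate 1, at 9, with 19 in WT replicate 2. Capn15, a calpain-family protease, had 14 and 29 reads and Isoc2b 14 and 19. Across the 15 genes WT replicate 2 gave more reads than WT replicate 1 without exception. Its inferred background density was 2.98 times that of WT replicate 1, and the part of density in these reads was not tested.

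**Figure D3:**
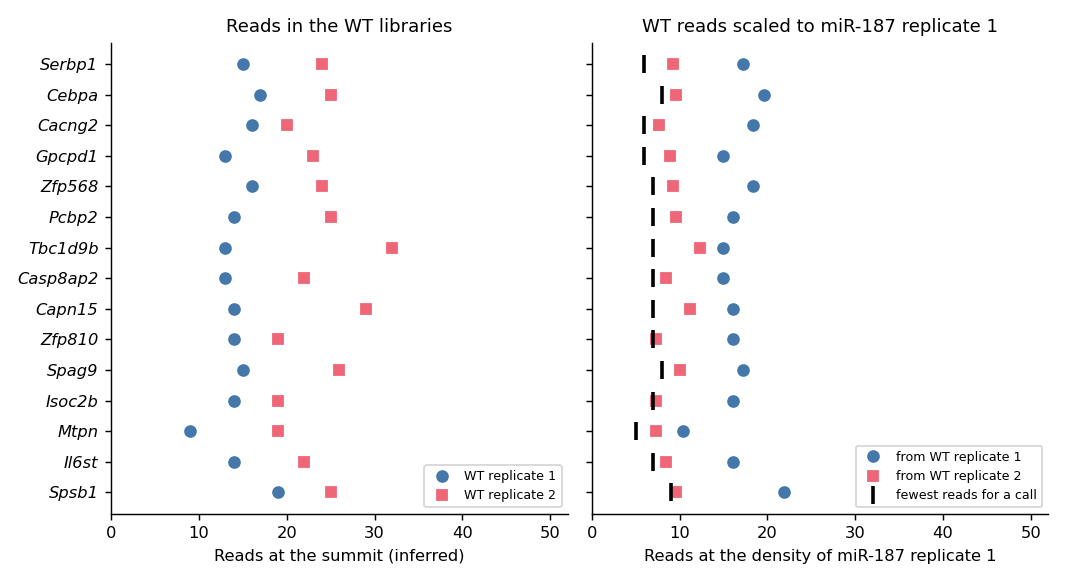
Reads at the summit, inferred from the peak values (left, x axis), in WT replicate 1 (circles) and WT replicate 2 (squares) for the 15 strongest members, and the same reads scaled to the background density of miR-187 replicate 1 (right, x axis) with the fewest reads needed for a call there (vertical bars). The reads needed rest on the local background of WT replicate 1, scaled to the same density. All scaled values exceed the reads needed, by the least in the WT replicate 2 values of Zfp810, Isoc2b and Spsb1, and Serbp1, for example, scales to 17.3 and 9.26 reads against 6 needed.

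The weak and distant ends of the set were close to the limits of the rule. The weakest members were Kank2, with a −log10 q of 2.97 and 1.48, Zfp605 with 4.37 and 1.65, and Adamtsl4 with 2.65 and 1.77, in WT replicates 1 and 2. Just inside the distance limit were Dok2 at 998 bp (−log10 q of 3.86 and 6.28) and Tldc2 at 996 bp (5.79 and 9.40). Just outside it were Jdp2 at 1006 bp (1.77 and 2.90) and Cdh16 at 1010 bp (4.49 and 11.2). Values on either side of the limit overlapped. The strongest kept regions, at Lars2, Lta4h, Med23, Afmid and Dnajc16, had a −log10 q of 32.6, 11.2, 21.3, 12.6 and 14.4 in WT replicate 1 and of 52.5, 8.05, 4.82, 5.74 and 8.08 in miR-187 replicate 1. Lars2 and Dnajc16 were also listed in miR-187 replicate 2, at 15.6 and 8.22. The Lars2 region lay nearest the 3′ end of its gene rather than the start, and its −log10 q was 100 in WT replicate 2.

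Members were described by gene function with 27 lists, and most lists held members and kept regions side by side. Housekeeping functions came first. Of 18 regions at cytosolic ribosomal protein genes 9 were members (50.0%, 29.0 to 71.0), against the background of 38.2%. Rpl3 was the strongest of them, with a strength rank of 79.0, whereas the median of the 9 was 6.37 and that of the 9 kept ribosomal regions 48.7. The group includes Rpl22l1, a paralog of a ribosomal protein. Mitochondrial ribosomal protein genes gave 4 members of 14 regions (28.6%, 11.7 to 54.6), led by Mrps36. Translation factors gave 3 of 13 (23.1%, 8.18 to 50.3), namely Eif4a2, Eif3e and Eef2kmt, the last of which encodes a methyltransferase that modifies an elongation factor. The aminoacyl-tRNA synthetase genes Rars and Mars2 were 2 of 4 regions, led by Rars at rank 40.7.

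Oxidative phosphorylation was the list with the lowest share among those of more than 10 regions. Its 2 members were Atp5g2, a subunit of ATP synthase, and Uqcr11, a subunit of respiratory complex III, among 13 regions (15.4%, 4.33 to 42.2). Their strength ranks were 86.6 and 62.3. Atp5g2 had a −log10 q of 5.70 and 13.9 with 12 and 31 reads, and Uqcr11 6.29 and 5.59 with 11 and 16 reads, in WT replicates 1 and 2. Ndufa6, a complex I subunit, was kept with a −log10 q of 6.84 and 14.5 and so lay at a similar strength to Atp5g2. The interval of the list includes the background share of 38.2%.

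Transcription and RNA processing genes had shares between 40.9% and 52.2%. General transcription genes gave 12 of 23 regions (52.2%, 33.0 to 70.8). They include Polr2a, the catalytic subunit of RNA polymerase II, its partners Polr2e and Polr2j, the RNA polymerase III subunits Polr3d and Polr3k, and the RNA polymerase I subunit Polr1b, with Polr2j strongest at rank 76.9. Polymerase subunits thus made up 6 of the 12, and the rest belong to TFIIH (Gtf2h4), TFIID (Taf13), Mediator (Med28), SAGA (Supt20) and Integrator (Ints2, Ints4). Splicing genes gave 8 of 18 (44.4%, 24.6 to 66.3), led by Rbm6, and include U2af1, which reads the 3′ splice site, and Prpf8, at the core of the spliceosome. Chromatin regulators gave 9 of 22 (40.9%, 23.3 to 61.3), led by Sirt4, which is a mitochondrial sirtuin. Others of that list are the H3K4 methyltransferase genes Kmt2c and Setd1a and the remodeller subunit gene Smarcc1. Zinc finger genes formed the largest list, with 35 of 83 regions (42.2%, 32.1 to 52.9), led by Zfp568. Ribosomal protein and zinc finger genes have close copies elsewhere in the genome, and how reads that match several places were treated is not given in the sources used here.

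Protein turnover and traffic were the other large groups. Vesicle traffic genes gave 27 of 57 regions (47.4%, 35 to 60.1), led by Vps13d, a lipid transfer protein, at rank 89.4, and include the COPI coat genes Copb2 and Copz2, the COPII genes Sec16a and Sec23b and the retromer gene Vps26a. Vps72, a chromatin protein, was taken in by its symbol. Ubiquitin system genes gave 17 of 48 (35.4%, 23.4 to 49.6), led by Trim65, with Ube2j2 counted at both of its regions. Proteasome genes gave 6 of 12 (50.0%, 25.4 to 74.6), led by Psmg4, and 3 of the 6 (Psmg1, Psmg3, Psmg4) encode assembly chaperones rather than subunits. Chaperones gave 5 of 15 (33.3%, 15.2 to 58.3), led by the chaperonin subunit Cct4, and among them Hspg2 encodes the matrix proteoglycan perlecan. Cell cycle and replication genes gave 12 of 34 (35.3%, 21.5 to 52.1), led by the mitotic kinase Aurkb and including the helicase genes Mcm2 and Mcm6, as well as Cdc42ep2, which was taken in by its symbol. DNA repair genes gave 4 of 9 (44.4%, 18.9 to 73.3), led by the Fanconi gene Fancl. The Wilson interval of each list with 12 or more regions named so far includes 38.2%, so none stands apart from the background by this measure.

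**Figure D4:**
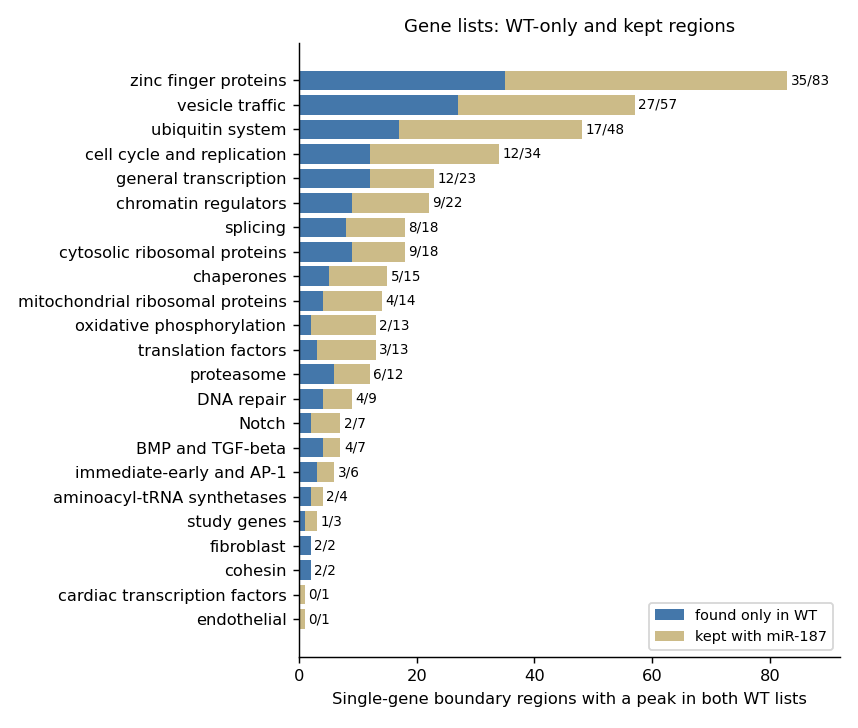
Number of single-gene boundary regions listed in both WT libraries (x axis) for the 23 gene lists with at least 1 such region (y axis), divided into regions found only in WT and kept regions. The number of members of all regions is printed at each bar, for example 35/83 for zinc finger genes and 2/13 for oxidative phosphorylation.

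Pathways of heart development had few regions to compare. BMP and TGF-beta signalling directs cushion formation and septation, and 4 of its 7 regions were members against a background of 38.2%, or 1 region with a −log10 q of at least 5. Nog, an extracellular inhibitor of BMP ligands, had a −log10 q of 6.04 and 8.70 with 12 and 18 reads, at a region whose midpoint lay 985 bp from the gene. Id3 and Id2, inhibitors of basic helix-loop-helix factors and targets of BMP signalling, had 18 and 27 and 12 and 20 reads, with folds of 4.42 and 3.68 and of 3.96 and 3.58. Tgfbr1, the type I receptor, had 8 and 19 reads and a −log10 q of 2.21 and 7.25. The kept regions of the list were at Acvrl1, a type I receptor of endothelium, and at Smad3 and Smad4, the intracellular transducers. Acvrl1 stood at rank 98.6, above all 830 members, and Smad4 at rank 2.19. With 7 regions, the interval of the share (57.1%, 25 to 84.2) spans most values.

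Notch genes gave 2 members of 7 regions (28.6%, 8.22 to 64.1). Mib1, the ubiquitin ligase by which cells presenting Notch ligands take them up, had a −log10 q of 4.43 and 6.54 with 11 and 17 reads, and Adam10, the protease that cleaves the receptor, 2.04 and 2.67 with 7 and 10 reads. Adam10 was near the detection limit in both WT libraries. Kept regions included those at Notch4, Adam17, Maml1 and Maml2. For the cohesin list, whose 12 genes cover the ring, its loaders and its regulators, 2 of 2 single-gene regions listed in both WT libraries were members (Wilson interval 34.2 to 100%), against the background of 38.2%, and with a −log10 q of at least 5 there were 0 members. Ctcf, the insulator protein at which cohesin halts, had a −log10 q of 3.89 and 5.73 with 10 and 16 reads at summits 380 and 410 bp upstream of the start. Esco2, which acetylates cohesin, had 2.84 and 4.91 with 7 and 12 reads. Their strength ranks were 59.5 (Ctcf) and 30.9 (Esco2), beside a median of 40.3 over the members.

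Lists of lineage genes offered almost no regions to compare. The endothelial markers and the cardiac transcription factors each had 1 single-gene region listed in both WT libraries, at the cadherin gene Cdh5 and at Tbx3, and both were kept. The cardiomyocyte, mural, erythroid and immune markers had 0 such regions, so the absence of members from them says nothing about these genes. From the fibroblast list the 2 collagen I genes were members. Col1a2 had a −log10 q of 4.05 and 5.49 with 8 and 13 reads, and Col1a1 4.48 and 3.54 with 12 and 14 reads, and neither gene had a kept region. Of 8 fibroblast marker genes, 2 and 4 had a peak in the WT libraries and 1 and 0 in the miR-187 libraries, so a difference in the cells captured and a difference in openness cannot be told apart for these genes. The 27 autosomal genes that the study followed by RT-qPCR had only 3 single-gene regions listed in both WT libraries. Of these, 1 was a member (33.3%, 6.15 to 79.2, against the background of 38.2%) and 2 were kept. The remaining genes had no such region, so their absence from the members says nothing about them. The member was Hhex, a homeobox gene of early endothelium, with a −log10 q of 3.10 and 6.18 and 8 and 18 reads. Its region lay downstream of the start, with summits 775 and 833 bp into the gene, and another region with a miR-187 peak lay at the same gene, 593 bp away. The early-response genes Ier5, Egr1 and Ier2 were 3 of 6 regions (50.0%, 18.8 to 81.2), led by Ier5 with 15 and 21 reads. Egr1 had 15 and 22 reads and Ier2 13 and 32, and these genes respond to cell handling as well as to growth factors.

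Position relative to the start differed a little between the sets. For the genes with a strand and a region within 1 kb of the start, the median summit of WT replicate 2 was 17 bp upstream in the 625 members (quartiles -103 and 108) and 47 bp upstream in the 1058 kept regions (quartiles -151 and 35.5). In WT replicate 1 the medians were 13 and 39 bp upstream. The summit of WT replicate 2 was upstream of the start at 57.8% of members (53.9 to 61.6) and 67.2% of kept regions (64.3 to 70.0), and that of WT replicate 1 at 55.0% (51.1 to 58.9) and 60.7% (57.7 to 63.6). Over all strengths together, both WT libraries thus placed the summits of the members further into the gene, although by less than the quartile range. Position was not compared within the groups of strength, and the members were the weaker peaks. Distance to the boundary hardly differed, with medians of 140 and 134 bp. Summits of both WT libraries were within 100 bp of each other at 50.6% of members and 53.2% of kept regions. A noncoding gene also had a boundary within 1 kb at 16.9% of members and 17.3% of kept regions.

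**Figure D5:**
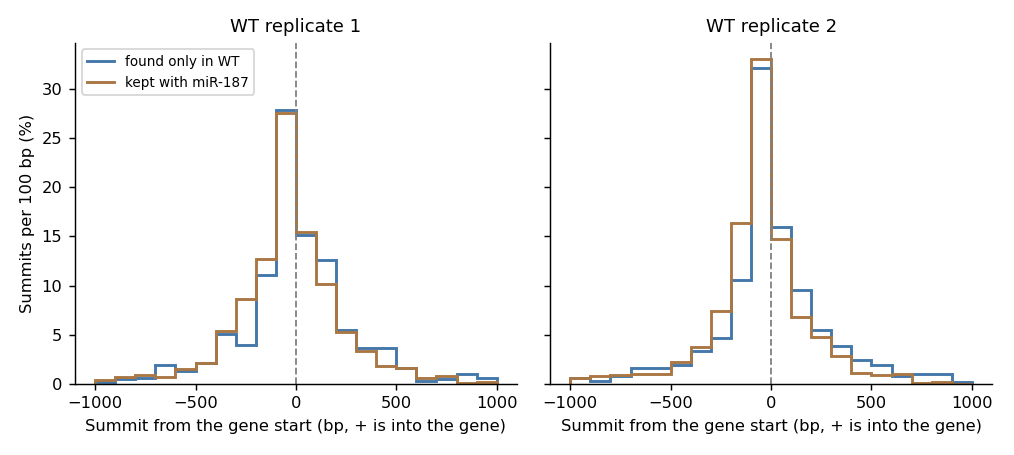
Position of the WT peak summit from the gene start in bp (x axis, positive values lie in the gene) for 625 members and 1058 kept regions near a start with a known strand, as a percentage of summits per 100 bp bin (y axis), in WT replicate 1 (left) and WT replicate 2 (right). Both distributions peak just upstream of the start. Over all strengths together, the members have more summits downstream, with medians of -17 against -47 bp in WT replicate 2.

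Over all strengths together, promoter sequence differed less between members and kept regions than either did from all starts for CpG content, GC content and the GC box. The ratio of observed to expected CpG had a median of 0.797 in 625 member windows, 0.808 in 1058 kept windows and 0.586 over all 20085 protein-coding starts of the table, and the GC content was 62.3%, 63.0% and 57.0%. A GC box occurred in 71.8% of members, 76.0% of kept regions and 47.0% of all starts, and a CCAAT box in 40.2%, 44.5% and 38.1%. The ETS motif was found in 20.2%, 19.4% and 11.9%, the NRF1 core, searched as GCGCATGC, in 7.68%, 6.81% and 3.55%, and the cAMP response element, searched as TGACGTCA, in 3.20%, 4.63% and 2.30%. The YY1 core and the E-box, searched as CACGTG, were the motifs with a higher share in members than in kept regions by more than 2 points, at 9.44% against 6.52% (all starts 6.29%) and 12.8% against 9.26% (all starts 7.89%). The TATA box was rarer than over all starts in both sets, at 5.92% and 4.91% against 12.7%, as was the AP-1 motif, searched as TGANTCA, at 4.32% and 4.35% against 7.06%. Within the groups of strength, the shares rest on 74 to 266 windows each and the differences were uneven. The CCAAT box was found in 30.6% of members and 43.1% of kept regions in group 1 but in 43.2% and 39.1% in group 5, and the GC box in 66.2% and 80.4% in group 3 but 76.9% and 74.6% in group 4. The E-box was more frequent in members in group 1 (15.6% against 6.88%) and less frequent in group 4 (8.33% against 12.3%), and the YY1 core differed most in group 5 (10.8% against 3.01%) and little in group 4 (9.26% against 8.90%). A match describes letters in the window only and was not taken as a binding site.

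A WT-only region was not the same as a gene without miR-187 peaks. At 68 of the 830 members (8.19%, 6.51 to 10.3) another region with a miR-187 peak lay at a boundary of the same gene, against 58 of 1344 kept regions (4.32%, 3.35 to 5.54) with a further such region. The share of members rested on the settings, being 28.6% with a reciprocal overlap of 50%, 3.37% and 14.6% with windows of 500 bp and 3 kb, 1.55% at a −log10 q of at least 5, 1.96% with lists of equal length and 0.983% without miR-187 replicate 1. It was 13.5% and 15% without WT replicates 1 and 2. A separate miR-187 peak lay within 1 kb of 64 members (7.71%, 6.08 to 9.73) and of 41 kept regions (3.05%, 2.26 to 4.11), and within 100 bp of 16 members and 6 kept regions. Of these 16, Zfp568, Bnip2 and Ube2g1 were the strongest, with a miR-187 peak 2, 69 and 51 bp from the region. Kept regions have by construction absorbed the miR-187 peaks that overlap them, so the shares are not on equal terms. In 12 genes, among them Itgb1, Rela and Cited2, 1 single-gene region was WT-only while another was kept. In 5 genes both regions were WT-only, namely Nfe2l2, which encodes the oxidative stress factor NRF2, the linker histone gene H1f2, Ube2j2, Cyp4f13 and Ccdc114. The Nfe2l2 regions had a −log10 q of 5.79 and 3.41, and of 3.42 and 4.59, in WT replicates 1 and 2.

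No single chromosome carried the members. The share of WT-only regions ranged from 32.3% on chromosome 15 (30 of 93, 23.6 to 42.3) to 47.2% on chromosome 19 (34 of 72, 36.1 to 58.6). All 19 intervals include 38.2%. With 2 libraries in each group the smallest 2-sided p an exact permutation test allows is 0.33, and at the members the miR-187 lists hold no value to compare.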

How the data were processed

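Each library had 1 peak list, and replicates were not pooled. Per the submitters' processing notes the reads were handled with Bowtie2 2.2.6, SAMtools 1.10 and MACS2 2.2.7.1 on mm10, and their settings are not given in the sources used here. Each deposited list holds the authors' score, a summit fold enrichment (a ratio to local background), and both a p and a q on the −log10 scale for each peak. These values were used within a list only, apart from the read inference.

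Boundaries and promoter windows came from RefSeq tables of GRCm38.p6 with 20665 protein-coding genes on the chromosomes used. The promoter table gives the strand for 658 members and holds 20085 starts. Summit reads and local background were solved so that (reads + 1)/(background + 1) gives the fold and the Poisson tail above the reads gives the −log10 p, within 0.0005. This succeeded for 100% of peaks in each list. Reads were assumed to be extended to 200 bp. Total read numbers were not used, and the largest listed q was between 0.0463 and 0.0498 in the 4 lists.

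Strength was the lower of the 2 WT percentile ranks of −log10 q. The genes named are the 15 strongest members, the 3 weakest, the strongest of each function list, all members of the endothelial, cardiomyocyte, study-gene, BMP and TGF-beta, Notch and cohesin lists, those nearest the 1 kb limit and the 5 strongest kept regions. Others were named after their values were seen. Members and lists were chosen with earlier results of these data known. Lists defined by symbol patterns take in some unrelated genes. Alternatives were a minimum −log10 q of 5, lists cut to the length of the shortest, reciprocal overlap of at least 50%, windows of 500 bp and 3 kb, adding chromosomes X and Y, ranking strength by fold enrichment, and leaving out each library. The work was done in Python 3.11.15 with scipy 1.17.1, pandas 2.3.3, numpy 2.4.6 and matplotlib 3.10.9, and the read solver was tested on simulated data.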

Additional observations from a re-analysis of the deposited data

How the results depend on the processing

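Over 52 alternatives of 5 results (the number of members, their share of single-gene regions, the median strength difference, their share in the strongest group, and the share with a further miR-187 region at the gene), 21 stayed within the set tolerance and 31 moved. Only the strength difference has a direction, and it changed sign in 0 of its alternatives. With a −log10 q of at least 5 the values were 323, 57.4%, -5.3, 31.9% and 1.55%. With all lists cut to the length of the shortest they were 102, 47.7%, -1.68, 30.2% and 1.96%. A reciprocal overlap of 50% gave shares of 45.1%, 27.6% in the strongest group and 28.6% with a further region, since overlapping peaks below that limit then count as separate. Windows of 500 bp and 3 kb gave 3.37% and 14.6% with a further region, and the wider window a strength difference of -17.9. Leaving out 1 library at a time gave 891 to 2663 members, shares of 41.0% to 89.5%, differences of -23.8 to -10.1, strongest-group shares of 26.0% to 84.7% and further-region shares of 0.983% to 15%. The highest count came without WT replicate 1 and the highest member share without miR-187 replicate 1, and each omission also drops a condition of the rule. At a −log10 q of at least 5, 18 of the 27 function list counts moved.

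No paired analysis was possible because the results come from no test and the members have no miR-187 values. Adding chromosomes X and Y or ranking by fold enrichment moved none of the results computed under them. miR-187 replicate 2 was the shallowest library. Depth was inferred, and its part in the absent peaks was not tested. Over all members the scaled reads varied with the WT library used, which gave 98.9% and 44.8%. The first of these shares was nearly fixed by the call in WT replicate 1. From both WT libraries, 852 of the 1344 kept regions reached the reads needed, although 1284 have a peak in miR-187 replicate 1. In the strongest group of WT strength all 101 members and all 334 kept regions reached them, against 48 of 228 members in the weakest. That contrast largely follows from the grouping by WT strength and says nothing on the part of depth.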
